A study of Homo sapiens with 15 samples.

Results

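The basement membrane is the thin matrix sheet under an epithelium, and the hemidesmosome is the junction that fixes the basal keratinocyte to it. In this junction, the integrin α6β4 and collagen XVII bind laminin-332 outside the cell and plectin and BPAG1 (the product of DST) inside it, while collagen VII forms the fibrils that anchor the sheet to the tissue below. Other integrins bind laminin, collagen or other matrix proteins at focal adhesions, and networks of type IV collagen, laminin, nidogen and perlecan give the sheet its structure. Squamous carcinomas keep many of these basal-cell genes, and p63 is known to maintain adhesion genes in basal epithelium.

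A set of 36 genes of the hemidesmosome, the basement membrane and the integrins was followed in HCC95 cells, an established line from a human lung squamous cell carcinoma (LUSC) that the labels call lung epithelial cells. The members were chosen by gene symbol, and 36 of 36 were found among the 61544 genes of the count table. They comprised 6 hemidesmosome genes, 6 laminin chains, 8 other integrins, 5 collagens, 9 linker, proteoglycan and matrix genes, and 2 genes for a receptor and an adaptor. Cells had received the negative control siRNA (siNC1) or 1 siRNA against KLF5 (siKLF5b), TP63 (siTP63b), SOX2 (siSOX2b) or GRHL2 (siGRHL2a), with 3 libraries of poly(A)+ RNA in each of the 5 groups. All groups were unmodified HCC95 cells apart from the siRNA, and the time from transfection to RNA extraction is not given in the sources used here. With 1 siRNA per factor, effects of the siRNA sequence and of the factor cannot be told apart. The labels do not say whether the 3 libraries of a group came from separate cultures, so the p-values measure only the spread between these libraries, which may be technical.

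The libraries fell into 2 sets. The deposited counts summed to 18947986 to 24845273 per library in siNC1 and 15655495 to 24524882 in siKLF5b. They summed to 27713754 to 30366136 in siTP63b, 22255856 to 32520477 in siSOX2b and 32138582 to 34229063 in siGRHL2a. Among genes with 20 to 500 counts, even values made up 49.69% to 50.67% in the 6 siNC1 and siKLF5b libraries, against 66.11% to 69.01% in the other 9. The column names of the table part the libraries in the same way, and the first principal component (51% of the variance) did so too. Between siNC1 and siTP63b, siSOX2b or siGRHL2a, any effect of the set and of the siRNA cannot be told apart. siKLF5b was tested against siNC1, the other 3 knockdowns were tested against each other, and levels across the sets are given side by side without a test. The set of siTP63b, siSOX2b and siGRHL2a holds no control siRNA, so a difference there does not show which group changed. For that set, fell and rose mean lower and higher than the other knockdown.

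The targeted genes were examined first. KLF5 stood at 123, 109 and 107 CPM in siNC1 (counts per 1000000 of the TMM-scaled library total) and at 71.8, 71.8 and 73.8 CPM in siKLF5b, so that the groups did not overlap. This was a log2 fold change (log2FC) of -0.64 (SE 0.058, edgeR adjusted p = 5.29e-10), which is smaller than the 0.75 used as threshold. TP63 was at 363 ± 22.3 CPM (SD, n = 3) in siTP63b, 690 ± 38.2 in siSOX2b and 831 ± 28.3 in siGRHL2a, and fell in siTP63b against both (log2FC -0.93 and -1.19). SOX2 was at 8.97 ± 1.63 CPM in siSOX2b, 29.5 ± 2.23 in siTP63b and 20.2 ± 1.54 in siGRHL2a, and was lowest in the cells that received its siRNA. GRHL2 was at 91.3 ± 0.56 CPM in siGRHL2a, 117 ± 2.39 in siTP63b and 100.2 ± 4.58 in siSOX2b. Its difference was 0.36 for siTP63b minus siGRHL2a and 0.14 for siSOX2b minus siGRHL2a on the log2 scale, with all 3 siGRHL2a libraries below the others. SOX2 also differed between siTP63b and siGRHL2a (log2FC 0.55, edgeR adjusted p = 8.99e-06).

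Markers of squamous epithelium were abundant, led by KRT5, the basal keratin, at 8633 ± 753 CPM in siNC1. Of 8 fibroblast markers, DCN, LUM, POSTN and COL1A2 had 0 to 8 counts in each library, and the most abundant was THY1 at 49.1 ± 4.97 CPM in siNC1. Of 5 endothelial markers, PECAM1 and KDR had at most 6 counts in a library and CDH5 at most 14, and VWF led with 14.5 ± 0.143 CPM in siNC1. Of 5 immune markers, CD3E, CD14 and MS4A1 had at most 2 counts, and CD68 led with 34.4 ± 1.55 CPM. The summed level of the 10 squamous markers was 10520 ± 791 CPM in siNC1, 7207 ± 559 in siKLF5b, 7222 ± 548 in siTP63b, 9536 ± 468 in siSOX2b and 11750 ± 142 in siGRHL2a. KRT5 made up most of it. Without KRT5 the sum was 1889 ± 48.5 CPM in siNC1, 1844 ± 33.4 in siKLF5b, 1474 ± 87.6 in siTP63b, 2062 ± 48.8 in siSOX2b and 2559 ± 32.2 in siGRHL2a, so that the difference between siNC1 and siKLF5b lay mainly in KRT5. By edgeR (adjusted p below 0.05 and absolute log2FC above 0.75), 2 of the 10 markers fell after KLF5 knockdown (KRT14 and KRT6A) and 1 rose (PERP), where 1.37% and 1.89% of all genes tested were called lower and higher. In the second set both sums were lowest in siTP63b and highest in siGRHL2a, as were several members below. In siTP63b minus siGRHL2a 3 of the 10 markers were called lower and 0 higher (3.21% and 2.18% of all genes tested). These counts were 2 and 1 in siTP63b minus siSOX2b (2.82% and 3.88%), and 1 and 0 in siSOX2b minus siGRHL2a (2.27% and 1.05%). The median log2FC of the markers was -0.62, -0.31 and -0.38 in turn, against -0.21, -0.05 and -0.15 for the members. The list includes TP63 and SOX2, which were themselves targeted, so both sums are partly set by the siRNAs, and the part of these markers in the members' differences was not tested. The fibroblast sum was 54.24 CPM in siNC1, 33.67 in siKLF5b, 51.96 in siTP63b, 65.73 in siSOX2b and 65.67 in siGRHL2a. By the same edgeR rule, 1 of 4 tested fibroblast markers was called lower in siKLF5b minus siNC1, siTP63b minus siSOX2b and siTP63b minus siGRHL2a. In siSOX2b minus siGRHL2a, 1 of 2 tested endothelial markers was called lower. PTPRC, the remaining immune marker, was called higher there by edgeR and not by DESeq2 (log2FC 1.52, DESeq2 adjusted p = 0.0616). The immune sum without CD68 was 1.007 CPM in siSOX2b and 0.356 in siGRHL2a.

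In control cells DST had the highest CPM of the set, 1572 ± 61.3 in siNC1 against 951 ± 12.6 for ITGA6, without allowance for the length of the gene. Per kilobase of merged exon, ITGA6 stood far above the rest, at 142 ± 1.89 CPM in siNC1. ITGA2, the collagen-binding integrin chain, followed with 49.1 ± 0.902, LAMC1, the laminin γ1 chain, with 45.3 ± 1.69, DST with 32.7 ± 1.27 and ITGB1, the common β1 chain, with 26.7 ± 0.869 CPM per kilobase. LAMC1 and ITGA2 lay closer to each other than the other neighbours in that order. The lowest were FREM2 at 2.06, NID2 at 0.592 and EGFLAM at 0.0106 CPM per kilobase. Because the counts cover introns, levels per kilobase of the whole gene were also computed: ITGA6 was again first at 12.02, followed by ITGA3 at 6.39 and CD151 at 4.95, whereas ITGA2 was 7th. EGFLAM, which encodes the matrix protein pikachurin, had 0 to 11 counts per library and was the 1 member that did not pass the filter on low counts.

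The 36 members together took 6737 ± 155 CPM in siNC1 and 6618 ± 54 in siKLF5b. Without DST, the most abundant member, the sum was 5165 ± 148 CPM in siNC1 and 4850 ± 48.9 in siKLF5b, and the libraries of the 2 groups did not overlap. In the second set, the sum was 6696 ± 272 CPM in siTP63b, 7632 ± 264 in siSOX2b and 8391 ± 123 in siGRHL2a. The 3 siTP63b libraries were below all 3 libraries of each of the other 2 groups. The 6 hemidesmosome genes summed to 2429 ± 107 CPM in siTP63b, 3036 ± 123 in siSOX2b and 3447 ± 58 in siGRHL2a. ITGA6 alone, at 499 ± 38.7, 965 ± 44.1 and 1039 ± 35.8 CPM, made up most of that gap, and DST was at 869 CPM in siTP63b and 838 in siSOX2b.

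**Figure D1:**
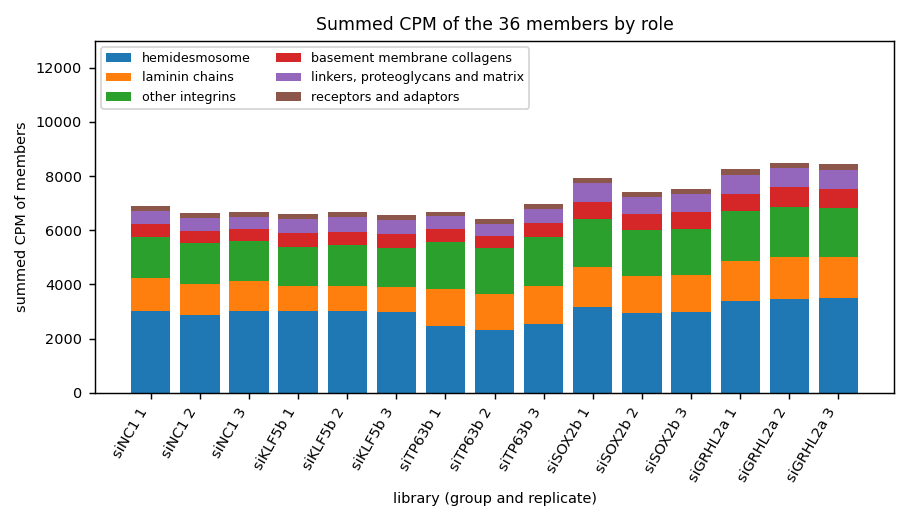
Stacked bars show the summed CPM of the 36 members by role (y axis) in each of the 15 libraries (x axis, group and replicate). The siTP63b libraries stand lower than the siSOX2b and siGRHL2a libraries of the same set, most of all in the hemidesmosome layer (2429 CPM against 3036 and 3447).

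Differences were tested for all 25108 genes that passed the filter, 35 of them members, with edgeR's quasi-likelihood test and Benjamini-Hochberg adjustment. A gene was called where the adjusted p was below 0.05 and the absolute log2FC above 0.75. After KLF5 knockdown 1 member was called lower (LAMC1) and 1 higher (NTN4), where 1.37% and 1.89% of all genes tested were. siTP63b minus siSOX2b gave 3 lower members (ITGA6, COL7A1, TNC) and 1 higher member (FRAS1), against 2.82% and 3.88% of all genes. In siTP63b minus siGRHL2a, 5 members were lower (ITGA6, LAMB3, COL4A6, COL7A1, TNC) against 3.21% of all genes. None was higher there by edgeR or by DESeq2, where 2.18% of all genes were called. At an unadjusted p under 0.05, 21 members were lower and 5 higher there, against 18.7% and 18.2% of all genes. Both these comparisons share the siTP63b libraries. In siSOX2b minus siGRHL2a no member was called in either direction by edgeR or DESeq2, where 2.27% of all genes were called lower and 1.05% higher. At an unadjusted p under 0.05, 20 members were lower and 3 higher in that comparison, against 18.5% and 16.8% of all genes.

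With no threshold on the size of the change, more members passed. By edgeR's adjusted p alone, 12 members were lower and 12 higher in siKLF5b minus siNC1 (12.9% and 10.3% of all genes tested). The counts were 15 lower and 8 higher in siTP63b minus siSOX2b (15.4% and 16.4%), 21 lower and 5 higher in siTP63b minus siGRHL2a (13.4% and 13.6%), and 17 lower and 3 higher in siSOX2b minus siGRHL2a (12.7% and 11.8%). The median log2FC of the 35 members was -0.04, -0.05, -0.21 and -0.15 in these 4 comparisons, and that of all genes tested was -0.01, 0.00, -0.01 and -0.02. The CPM of the 3 libraries of each group did not overlap for 13 members that were lower and 14 that were higher in siKLF5b minus siNC1 (22.5% and 20% of all genes tested). These counts were 14 and 6 in siTP63b minus siSOX2b (18.8% and 19.6%), 20 and 5 in siTP63b minus siGRHL2a (17.8% and 17.8%), and 17 and 4 in siSOX2b minus siGRHL2a (18.6% and 16.6%). In siSOX2b minus siGRHL2a the members ranged from -0.53 (NID2) to 0.27 (ITGB6). As these are whole-culture RNA libraries, fewer cells that express a gene and less of its RNA per cell cannot be told apart in any of these results. Single genes were also compared by exact permutation, where 3 against 3 libraries cannot give a p below 0.1.

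**Figure D2:**
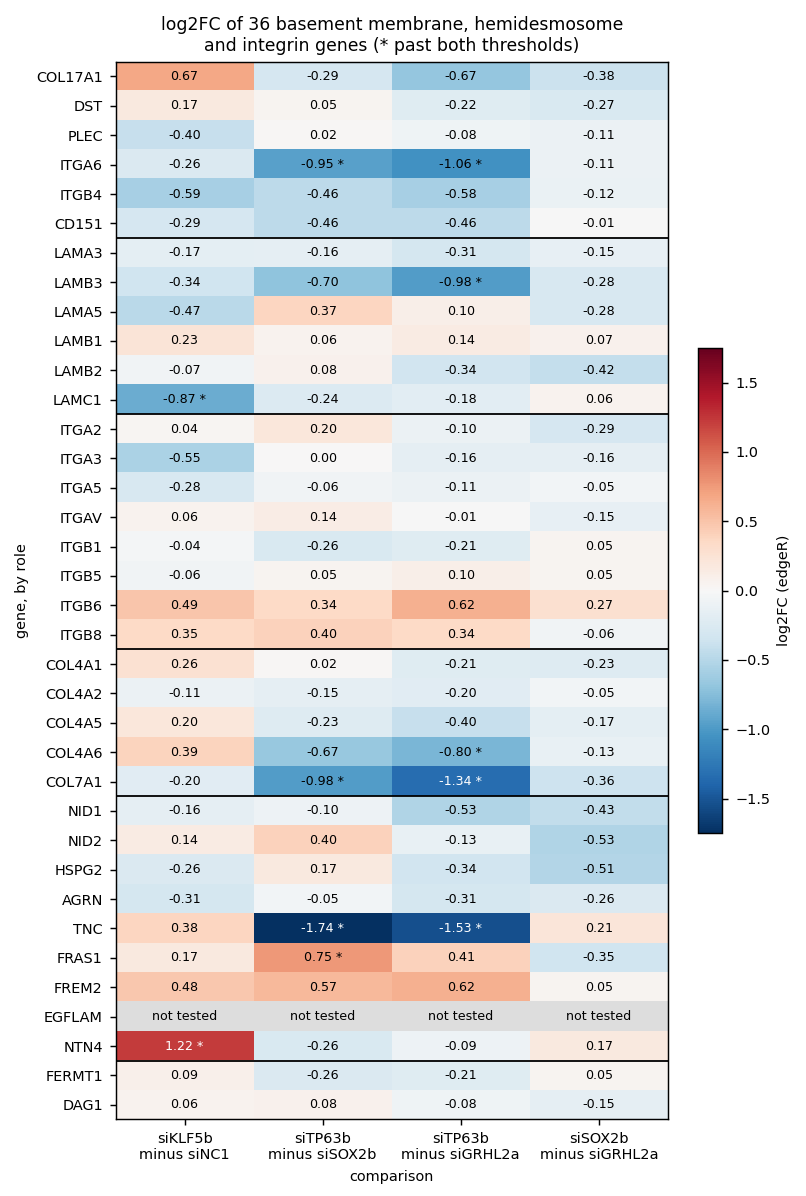
Each cell gives the log2FC of a member (rows, grouped by role) in 1 of the 4 comparisons (columns) by colour and number, and a star marks those past both thresholds. ITGA6, COL7A1 and TNC are low in both siTP63b columns, LAMC1 (-0.87) and NTN4 (1.22) stand out under siKLF5b, and the siSOX2b minus siGRHL2a column holds no star.

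Among the 6 hemidesmosome genes, the integrin α6 chain was called lower in siTP63b minus siSOX2b and in siTP63b minus siGRHL2a. In these comparisons 2.82% and 3.21% of all genes tested were called lower. The remaining 5 stayed inside the fold threshold in every comparison. ITGA6 (ENSG00000091409.16, chr2:172427354-172506459, plus strand, hg38) encodes the laminin-binding α6 chain, which pairs with β4 in the hemidesmosome and with β1 elsewhere. It was at 497, 461 and 539 CPM in siTP63b, at 1012, 957 and 925 CPM in siSOX2b and at 1034, 1007 and 1078 CPM in siGRHL2a. All siTP63b libraries were therefore far below the other 6, while siSOX2b and siGRHL2a overlapped. The log2FC was -0.95 (SE 0.050, edgeR adjusted p = 9e-16) against siSOX2b and -1.06 (SE 0.050, edgeR adjusted p = 1.22e-16) against siGRHL2a. In the other set it was at 955, 937 and 961 CPM in siNC1 and at 793, 808 and 785 CPM in siKLF5b (log2FC -0.26, edgeR adjusted p = 0.000183). An unnamed lncRNA gene on the opposite strand (ENSG00000225205) held 70.5% as many counts as ITGA6, other genes cover 73.2% of the ITGA6 exon bases, and that lncRNA had log2FC -0.96 and -1.04 in the same comparisons. Whether the counting used strand is not given in the sources used here, so their reads cannot be told apart.

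ITGB4, the β4 partner of α6, did not follow it to the same extent. It was at 286, 252 and 319 CPM in siTP63b, 399, 377 and 404 CPM in siSOX2b and 395, 441 and 443 CPM in siGRHL2a, again with siTP63b lowest and without overlap. Its log2FC of -0.46 (SE 0.064, edgeR adjusted p = 1.02e-06) and -0.58 (SE 0.064, edgeR adjusted p = 1.93e-08) passed the adjusted p and not the fold. In siKLF5b it was at 92.2, 92.0 and 94.7 CPM against 154, 135 and 130.2 CPM in siNC1, with log2FC -0.59 (SE 0.069, edgeR adjusted p = 8.68e-08). All siKLF5b libraries were lower. GALK1 on the opposite strand overlaps the ITGB4 gene, held 29.4% as many counts and had log2FC -0.54 in siKLF5b, -0.39 in siTP63b minus siSOX2b and -0.41 in siTP63b minus siGRHL2a.

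COL17A1, the transmembrane collagen of the hemidesmosome, passed the adjusted p and not the fold threshold in each of the 4 comparisons. It was at 126, 122 and 118 CPM in siNC1 and at 196, 193 and 192 CPM in siKLF5b, so that all 3 siKLF5b libraries were higher (log2FC 0.67, SE 0.060, edgeR adjusted p = 3.8e-10). In the other set it was at 259, 236 and 293 CPM in siTP63b, 334, 297 and 333 CPM in siSOX2b and 410.1, 416 and 426 CPM in siGRHL2a. The 3 groups were ordered without overlap. The log2FC was -0.29 for siTP63b minus siSOX2b, -0.67 for siTP63b minus siGRHL2a and -0.38 for siSOX2b minus siGRHL2a. COL17A1 was above and ITGB4 below the control after KLF5 knockdown, although both encode parts of 1 junction.

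The cytoplasmic linkers and the tetraspanin stayed inside the fold threshold in the 4 comparisons. DST, for BPAG1, had log2FC 0.17 in siKLF5b, and PLEC, for plectin, which ties the junction to keratin filaments, had -0.40. Between the 3 other knockdowns DST ranged from -0.27 to 0.05 and PLEC from -0.11 to 0.02. CD151, the tetraspanin that associates with laminin-binding integrins, had -0.46 in siTP63b against both siSOX2b (edgeR adjusted p = 0.000112) and siGRHL2a (edgeR adjusted p = 0.0001). POLR2L on the opposite strand overlaps CD151, held 103% as many counts and had log2FC -0.23 and -0.17 in these comparisons.

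Of the 6 laminin chains, LAMC1 was called lower in siKLF5b minus siNC1 (1.37% of all genes tested) and LAMB3 in siTP63b minus siGRHL2a (3.21%), and the remaining 4 were called in none of the 4 comparisons. Laminins are trimers of an α, a β and a γ chain, and laminin-332 (α3, β3 and γ2) is the ligand of α6β4 in squamous epithelium, whereas γ1 is shared by most other laminins. LAMC1 fell with the KLF5 siRNA, and LAMB3 and COL7A1 were both lower in siTP63b than in siGRHL2a. Their promoters are shown as examples of called members with KLF and SP motif matches. LAMB3 and COL7A1 were not called after KLF5 knockdown, and called members without such matches are named below and not shown. Each promoter shown is the 250 bases before the start of the gene in RefSeq (GRCh38.p14), given 5′ to 3′ on the strand of the gene. Capitals mark matches on either strand to GGGCGGG and GGGTGGG, the GC and CACCC boxes that KLF and SP factors bind (read as CCCGCCC and CCCACCC on the other strand). They lie at chr1:183023170-183023419 (plus strand), chr1:209652426-209652675 (minus strand) and chr3:48595330-48595579 (minus strand).
LAMC1: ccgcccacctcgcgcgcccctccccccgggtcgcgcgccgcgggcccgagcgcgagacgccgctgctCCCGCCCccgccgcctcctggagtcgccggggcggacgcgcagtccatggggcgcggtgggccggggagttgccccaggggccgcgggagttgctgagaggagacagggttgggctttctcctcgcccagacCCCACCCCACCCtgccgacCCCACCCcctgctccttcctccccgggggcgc
LAMB3: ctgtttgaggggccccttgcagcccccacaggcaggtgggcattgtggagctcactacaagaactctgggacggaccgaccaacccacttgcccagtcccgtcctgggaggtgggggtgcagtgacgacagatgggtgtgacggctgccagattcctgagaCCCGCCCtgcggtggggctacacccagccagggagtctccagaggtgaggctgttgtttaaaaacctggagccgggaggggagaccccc
COL7A1: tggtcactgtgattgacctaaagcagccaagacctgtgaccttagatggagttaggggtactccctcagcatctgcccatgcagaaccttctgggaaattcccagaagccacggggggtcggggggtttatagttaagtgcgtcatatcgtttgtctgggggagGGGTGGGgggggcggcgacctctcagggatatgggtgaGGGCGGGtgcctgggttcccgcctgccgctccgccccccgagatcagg

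The LAMC1 promoter held 1 GGGCGGG at position 68 and 3 GGGTGGG, at positions 200, 205 and 219, the first and second of which overlap. COL7A1 held GGGTGGG at position 165 and GGGCGGG at position 203, and LAMB3 held GGGCGGG at position 162. Of the called members not shown, TNC held GGGCGGG at position 22 and FRAS1 at position 214. NTN4, the other member called after KLF5 knockdown, held neither of these motifs, nor did COL4A6 or ITGA6. Promoters of 30 of the 36 members were matched by symbol. GGGCGGG was present in 18 of these 30 (60%), against 31.4% of all 27305 promoters and 51.2% of the 10271 promoters of genes with at least 1500 counts. GGGTGGG was present in 10 of 30 (33.3%), against 17.4% and 19.3%. ATTGTT, the SOX motif, was in 2 (COL4A6 and NTN4; 6.67%, against 9.19% and 4.54%). AACCGGTT (GRHL) and the p53-family motif (CATG, 6 bases of any kind and CATG again) were in none, and in 0.106% and 0.297% of all promoters. The ITGA6 window held no match to any of the 5. All were searched on both strands, and a match describes letters and not a bound site.

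LAMC1 (ENSG00000135862.6, chr1:183023420-183145592, plus strand) was the 1 member called lower, past both thresholds, after KLF5 knockdown. It was at 397, 383 and 368 CPM in siNC1 and at 205, 215 and 209 CPM in siKLF5b, with no overlap. The log2FC was -0.87 (SE 0.046, edgeR adjusted p = 5.74e-15). LAMC1-AS1, an antisense gene inside LAMC1, held 7.41% as many counts, and without its counts the log2FC of LAMC1 was -0.88. In the other set LAMC1 was at 322 ± 4.81 CPM in siTP63b, 381 ± 15 in siSOX2b and 365 ± 12.9 in siGRHL2a, with log2FC -0.24 and -0.18 for siTP63b against the 2 others.

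LAMB3, the β3 chain of laminin-332, was lowest in siTP63b among its set. It was at 80.4, 67.7 and 88.3 CPM in siTP63b, 134, 118 and 133 CPM in siSOX2b and 154, 160.4 and 154 CPM in siGRHL2a, and the 3 groups did not overlap. It fell in siTP63b minus siGRHL2a (log2FC -0.98, SE 0.064, edgeR adjusted p = 2.45e-13). Against siSOX2b its log2FC was -0.70 (SE 0.065, edgeR adjusted p = 3.11e-10), just inside the fold threshold, and it ranged from -0.79 to -0.61 when 1 library was left out, past the threshold without siTP63b replicate 3 or siSOX2b replicate 2. In siKLF5b it was at 43.8, 44.3 and 44.1 CPM against 58.0, 55.8 and 53.9 CPM in siNC1 (log2FC -0.34, edgeR adjusted p = 0.000477).

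LAMA3, the α3 chain of the same trimer, moved less. It was at 219, 206 and 210.4 CPM in siTP63b, 254, 228 and 229 CPM in siSOX2b and 263, 265 and 261 CPM in siGRHL2a, in the same order as LAMB3. The log2FC was -0.31 (SE 0.046, edgeR adjusted p = 3.4e-06) for siTP63b minus siGRHL2a and -0.16 (edgeR adjusted p = 0.00726) for siTP63b minus siSOX2b. In siNC1 it was at 182, 183 and 184 CPM and in siKLF5b at 160.2, 162 and 164 CPM, a log2FC of -0.17. LAMA5, the α5 chain of most mature epithelial basement membranes, had log2FC -0.47 in siKLF5b (edgeR adjusted p = 4.97e-07) and 0.37 in siTP63b minus siSOX2b (edgeR adjusted p = 7.01e-06). LAMB1 and LAMB2, the β1 and β2 chains, had 0.23 and -0.07 in siKLF5b, and LAMB2 had -0.42 in siSOX2b minus siGRHL2a. On the opposite strand, ADRM1 overlaps LAMA5 and DLD overlaps LAMB1, with 24.3% and 72.4% as many counts as these members.

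**Figure D3:**
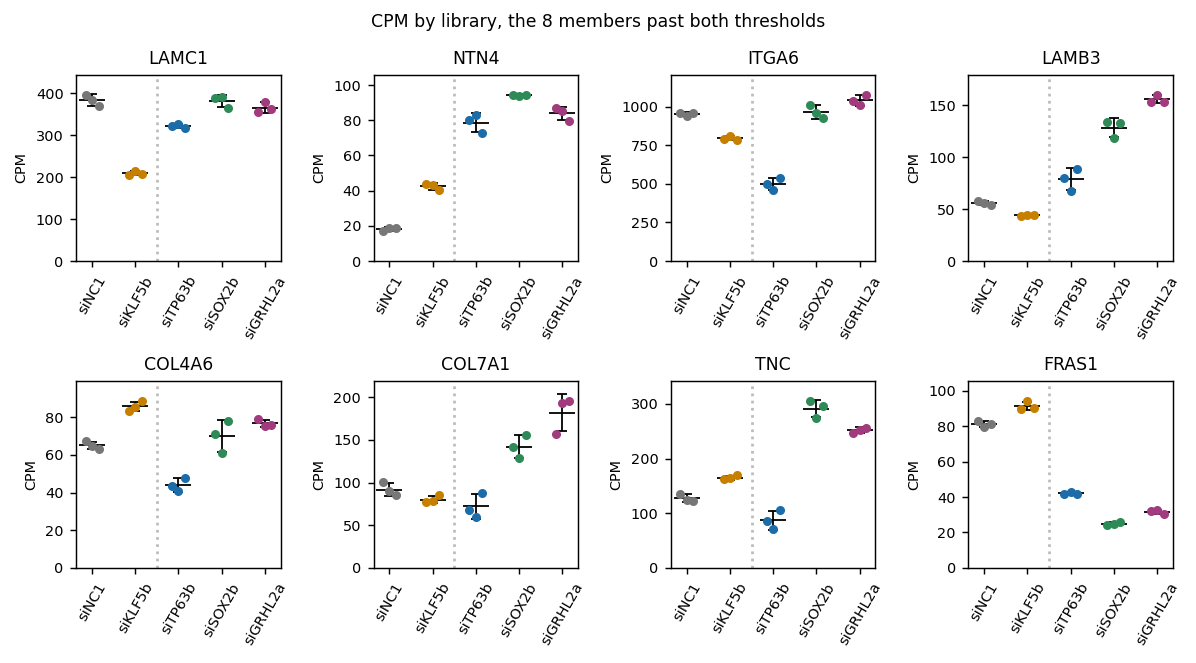
Points give CPM per library (y axis, from 0) of the 8 called members in the 5 groups (x axis), with the mean and SD of 3 libraries, and the dotted line parts the 2 sets. LAMC1 and NTN4 separate siKLF5b from siNC1, and ITGA6, LAMB3, COL4A6, COL7A1 and TNC are lowest in siTP63b among the right-hand groups.

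The collagens were lower in siTP63b than in siGRHL2a for all 5 members by edgeR's adjusted p alone, and 2 of them passed the fold threshold too, where 13.4% and 3.21% of all genes tested were lower by these rules. COL7A1 (ENSG00000114270.18, chr3:48564073-48595329, minus strand) encodes the anchoring-fibril collagen. It was at 68.3, 59.96 and 87.8 CPM in siTP63b, 141, 129 and 155 CPM in siSOX2b and 157, 194 and 195 CPM in siGRHL2a. The siTP63b libraries were well below the other 6. The log2FC was -0.98 (SE 0.092, edgeR adjusted p = 5.33e-10) against siSOX2b and -1.34 (SE 0.092, edgeR adjusted p = 6.98e-13) against siGRHL2a. In the first set it was at 100.3, 89.7 and 85.1 CPM in siNC1 and 77.5, 78.0 and 84.8 CPM in siKLF5b, a log2FC of -0.20 (edgeR adjusted p = 0.141) that did not pass.

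COL4A6 (chrX:108155607-108439497, minus strand), the α6 chain of type IV collagen, is found with α5 in epithelial basement membranes. It was at 43.3, 40.8 and 47.8 CPM in siTP63b, 71.1, 61.1 and 77.8 CPM in siSOX2b and 79.0, 75.4 and 75.6 CPM in siGRHL2a. siTP63b was lowest, and the other 2 overlapped. It fell in siTP63b minus siGRHL2a (log2FC -0.80, SE 0.067, edgeR adjusted p = 5.96e-11), but was at -0.74 and inside the threshold when siTP63b replicate 2 was left out. Against siSOX2b the log2FC was -0.67 (edgeR adjusted p = 2.6e-09), and -0.76 without siSOX2b replicate 2. In siKLF5b it was at 83.3, 85.4 and 88.4 CPM against 67.2, 64.9 and 63.3 CPM in siNC1, all higher (log2FC 0.39, edgeR adjusted p = 4.29e-05).

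COL4A5, which lies head to head with COL4A6 and encodes its α5 partner, went the same way with smaller size. It was at 109.8, 115 and 112 CPM in siTP63b, 134, 134 and 126 CPM in siSOX2b and 145, 152 and 147 CPM in siGRHL2a, with no overlap between the 3 groups. Its log2FC was -0.40 for siTP63b minus siGRHL2a (edgeR adjusted p = 3.24e-08) and -0.23 for siTP63b minus siSOX2b (edgeR adjusted p = 0.000191). In siNC1 it was at 139, 146 and 143 CPM and in siKLF5b at 161, 165 and 165 CPM (log2FC 0.20).

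The ubiquitous type IV pair, COL4A1 and COL4A2, differed less. COL4A1 was at 128, 129.8 and 133 CPM in siTP63b, 128, 126 and 134 CPM in siSOX2b and 139.9, 157 and 157 CPM in siGRHL2a, so siGRHL2a was highest and the other 2 overlapped. COL4A2 was at 113, 113 and 126 CPM, 131, 124 and 137 CPM and 126, 145 and 135 CPM in these groups. Both stayed within 0.23 of no change on the log2 scale in the 3 comparisons of this set. In siKLF5b COL4A1 was at 104, 109 and 102 CPM against 93.1, 88.1 and 81.8 CPM in siNC1 (log2FC 0.26, edgeR adjusted p = 0.000523), and COL4A2 was at 70.6, 72.8 and 67.8 CPM against 83.8, 71.6 and 72.0 CPM, which overlap. Antisense genes inside COL4A2 held 17% and 8.16% as many counts as it did.

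**Figure D4:**
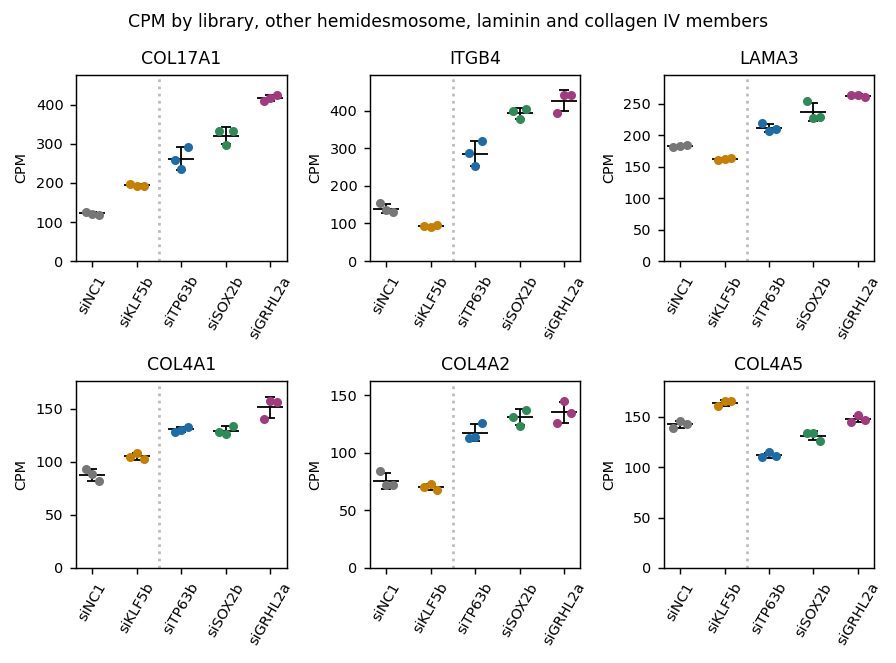
Points give CPM per library (y axis, from 0) of 6 hemidesmosome, laminin and collagen genes in the 5 groups (x axis), with the mean and SD of 3 libraries, and the dotted line parts the 2 sets. COL17A1 is higher and ITGB4 lower in siKLF5b than in siNC1, and COL17A1, LAMA3 and COL4A5 are lowest in siTP63b and highest in siGRHL2a in the right-hand set.

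Of the 8 other integrin genes none was called by edgeR or DESeq2 in any of the 4 comparisons. At an unadjusted p under 0.05, 2 were lower and 2 higher in siKLF5b minus siNC1, 1 and 4 in siTP63b minus siSOX2b, 2 and 2 in siTP63b minus siGRHL2a, and 3 and 1 in siSOX2b minus siGRHL2a. The shares of all genes tested at that p were 18.4% and 15%, 20% and 20.7%, 18.7% and 18.2%, and 18.5% and 16.8%. The β6 and β8 chains, whose αv dimers activate latent TGF-β, had positive values in siKLF5b and in siTP63b. ITGB6 was at 34.2, 34.4 and 36.3 CPM in siKLF5b against 24.2, 25.6 and 24.7 CPM in siNC1, and at 34.2, 35.9 and 30.3 CPM in siTP63b against 22.5, 21.2 and 21.8 CPM in siGRHL2a. The groups did not overlap in either pair, and the log2FC was 0.49 (edgeR adjusted p = 9.34e-06) and 0.62 (edgeR adjusted p = 6.76e-08). An unnamed lncRNA gene on the same strand (ENSG00000285155) overlaps ITGB6, held 41.9% as many counts and had log2FC 0.51 and 0.65 in these pairs. ITGB8 had 0.35 in siKLF5b, 0.40 in siTP63b minus siSOX2b and 0.34 in siTP63b minus siGRHL2a. ITGAV, which pairs with both, stayed between -0.15 and 0.14. An unnamed lncRNA gene on the opposite strand (ENSG00000227227) held 76.5% as many counts as ITGAV, and other genes cover 69.6% of the ITGAV exon bases.

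ITGA3, the α3 chain that binds laminin-332 with β1, was at 144, 149 and 159 CPM in siKLF5b against 235, 216 and 210.3 CPM in siNC1. All 3 were lower, with log2FC -0.55 (SE 0.061, edgeR adjusted p = 3.04e-08), while the values in the other set ranged from -0.16 to 0.00. ITGB1 had -0.26 and -0.21 in siTP63b against siSOX2b and siGRHL2a, and -0.04 in siKLF5b. ITGA2 had -0.29 in siSOX2b minus siGRHL2a and 0.04 in siKLF5b, and ITGB5, a partner of αv, stayed between -0.06 and 0.10. ITGA5, the fibronectin receptor chain, had -0.28 in siKLF5b, but it lies inside genes on the opposite strand that held 178% to 242% as many counts, so its value is uncertain.

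The linker and matrix genes held both the largest fall and the largest rise of the set. TNC (ENSG00000041982.16, chr9:115019575-115118257, minus strand) encodes tenascin-C, a matrix protein found at wound edges and in tumour stroma. It was at 84.9, 70.6 and 106 CPM in siTP63b, 305, 274 and 296 CPM in siSOX2b and 247, 253 and 256 CPM in siGRHL2a. Every siTP63b library was below every other library of the set. The log2FC was -1.74 (SE 0.079, edgeR adjusted p = 3.22e-17) against siSOX2b and -1.53 (SE 0.078, edgeR adjusted p = 8.34e-16) against siGRHL2a. In siKLF5b TNC was at 162, 164 and 169 CPM against 135, 124 and 122 CPM in siNC1 (log2FC 0.38, edgeR adjusted p = 0.000461). DELEC1, an lncRNA gene on the opposite strand, covers the whole of TNC and held 101% to 103% as many counts in all 15 libraries, with log2FC -1.74 and -1.53 in the same comparisons, so reads of the 2 genes cannot be told apart.

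NTN4 (ENSG00000074527.13, chr12:95657807-95791189, minus strand) encodes netrin-4, a secreted protein that binds laminin γ chains. It was at 16.9, 19.0 and 19.0 CPM in siNC1 and at 44.0, 43.1 and 40.4 CPM in siKLF5b, with every siKLF5b library above every control. The log2FC was 1.22 (SE 0.069, edgeR adjusted p = 2.01e-14), the largest rise among the members in the 4 comparisons with the counts as deposited (FRAS1, below, exceeded it once the counts of a nested pseudogene were subtracted). PGAM1P5, a pseudogene on the opposite strand that overlaps NTN4, held 64.5% as many counts and had log2FC 1.43 (edgeR adjusted p = 1.56e-13), so part of the NTN4 counts may be shared. In the other set NTN4 was at 78.6 ± 5.45 CPM in siTP63b, 94.3 ± 0.475 in siSOX2b and 83.9 ± 3.83 in siGRHL2a, with log2FC from -0.26 to 0.17. LAMC1 and NTN4, whose products bind each other, were thus the only members called after KLF5 knockdown, and in opposite directions.

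FRAS1 (ENSG00000138759.20, chr4:78057323-78544269, plus strand) encodes a matrix protein that links epithelium and mesenchyme in the embryo. It was at 41.9, 42.7 and 41.5 CPM in siTP63b, 24.2, 24.6 and 26.1 CPM in siSOX2b and 32.3, 32.5 and 30.3 CPM in siGRHL2a. The 3 groups did not overlap, and siSOX2b was lowest. FRAS1 was higher in siTP63b minus siSOX2b (log2FC 0.75, SE 0.058, edgeR adjusted p = 6.31e-12), at the edge of the threshold, and lost the call when siTP63b replicate 2, siSOX2b replicate 1 or siSOX2b replicate 2 was left out (0.73 to 0.78 over the 6 libraries left out in turn). SERBP1P5, a processed pseudogene in an intron of FRAS1, held 6.62% to 52.5% as many counts as FRAS1. With its counts subtracted, a choice made after the data were seen, the log2FC of FRAS1 was 1.38 in siTP63b minus siSOX2b, 0.61 in siTP63b minus siGRHL2a and -0.77 in siSOX2b minus siGRHL2a. The last was then called, which made it the 1 called member of that comparison.

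FREM2, which acts with FRAS1 in 1 complex, had positive log2FC in siKLF5b (0.48, edgeR adjusted p = 8.6e-05), in siTP63b minus siSOX2b (0.57, edgeR adjusted p = 2.41e-05) and in siTP63b minus siGRHL2a (0.62, edgeR adjusted p = 6.45e-06). It was at 17.5, 13.3 and 14.4 CPM in siTP63b and at 8.56 to 10.7 CPM in the 6 libraries of siSOX2b and siGRHL2a, which did not overlap. HSPG2, for perlecan, and NID1, for nidogen-1, which joins laminin to collagen IV, were lower in both siTP63b (-0.34 and -0.53) and siSOX2b (-0.51 and -0.43) than in siGRHL2a by the adjusted p alone. AGRN, for agrin, had -0.31 in siKLF5b and -0.31 in siTP63b minus siGRHL2a, and NID2, with at most 5.02 CPM in a library, had -0.53 in siSOX2b minus siGRHL2a (edgeR adjusted p = 0.0314). RTRAF on the opposite strand overlaps NID2 and held 2340% as many counts, so the NID2 value is uncertain. An unnamed lncRNA gene inside AGRN on the same strand (ENSG00000242590) held 30.7% as many counts as AGRN.

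The remaining 2 members were a cytoplasmic activator of integrins and a laminin receptor. FERMT1, for kindlin-1, had -0.26 in siTP63b minus siSOX2b (edgeR adjusted p = 8.64e-05) and -0.21 in siTP63b minus siGRHL2a, and 0.09 in siKLF5b. DAG1, for dystroglycan, stayed between -0.15 and 0.08 in the 4 comparisons and passed the adjusted p in none of them by edgeR, and neither gene was called by DESeq2. At an unadjusted p under 0.05, 1 of the 2 genes was lower in each of the 3 comparisons of the second set, where 20%, 18.7% and 18.5% of all genes tested were.

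**Figure D5:**
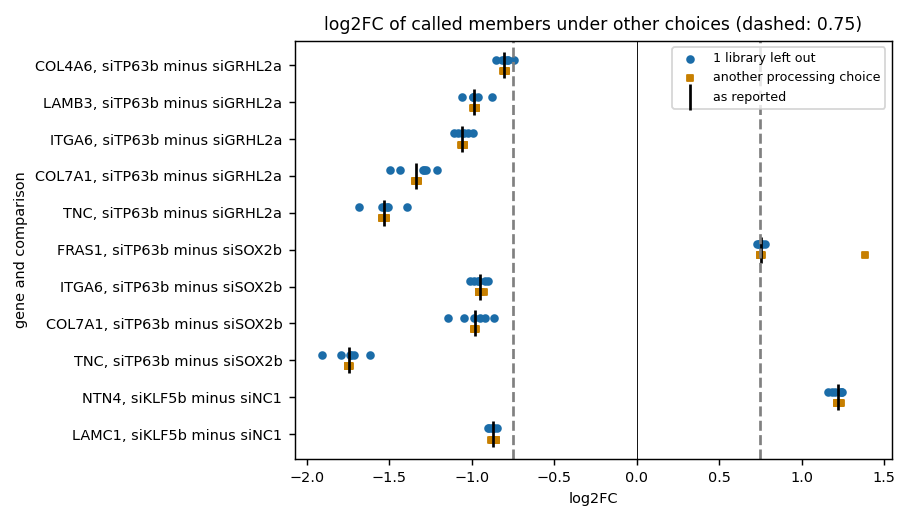
For each called member and comparison (y axis), the log2FC (x axis) is shown as reported (black line), with 1 library left out (blue) and under other processing choices (orange), with dashed lines at the threshold of 0.75. FRAS1 and COL4A6 cross the threshold, FRAS1 moves to 1.38 when pseudogene counts are subtracted, and the others stay beyond it.

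Across the sets, the levels of several members differed more than within them, and the set and the knockdown cannot be told apart there. PLEC was at 153 ± 8.35 CPM in siNC1 and 116 ± 4.41 in siKLF5b, but at 477 ± 26.4, 469 ± 24 and 505 ± 44.5 CPM in siTP63b, siSOX2b and siGRHL2a. NTN4, LAMA5 and COL17A1 were likewise higher in all 9 libraries of the second set than in the 6 of the first. FRAS1, FREM2, DST and ITGA2 were lower in all 9 than in all 6. ITGA6 did not part by set: siSOX2b and siGRHL2a, at 965 ± 44.1 and 1039 ± 35.8 CPM, lay near siNC1 at 951 ± 12.6 CPM, and siTP63b lay at 499 ± 38.7 CPM.

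Genes of the same structures outside the set were counted on 4 lists. After KLF5 knockdown, 1 of 19 tested other basement membrane genes was called lower and 2 higher, where 1.37% and 1.89% of all genes tested were. TINAGL1, a matrix glycoprotein gene, had log2FC -0.80, LAMA2, the laminin α2 chain, 0.90, and FREM1, of the FRAS1 family, 2.02 from under 2 CPM in every library. DESeq2 gave no adjusted p for FREM1 and made the other 2 calls. Of 19 other integrins and receptors, 1 was called lower, MCAM, a laminin-binding adhesion molecule (-0.84, edgeR adjusted p = 2.28e-07). None of 20 focal adhesion adaptors was called by edgeR or DESeq2, but 13 were lower and 1 higher at an unadjusted p under 0.05, against 18.4% and 15% of all genes tested. By edgeR's adjusted p alone 12 were lower and 0 higher, against 12.9% and 10.3% of all genes, and the median log2FC of the adaptors was -0.29 against -0.01. Of 19 genes of collagen processing and matrix remodelling, 3 were called lower (1.37% of all genes tested were) and none higher by edgeR or DESeq2. At an unadjusted p under 0.05, 9 of these were lower and 1 higher, against 18.4% and 15% of all genes. TIMP2, a metalloproteinase inhibitor, was at 29.4, 29.6 and 29.6 CPM in siKLF5b against 58.4, 52.8 and 58.8 CPM in siNC1 (log2FC -0.94, edgeR adjusted p = 1.4e-13). MMP2, a gelatinase that TIMP2 regulates, had -0.76, and LOXL4, a collagen cross-linking oxidase, -0.92.

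In siTP63b, 4 of 19 collagen-processing genes were called lower against siSOX2b and 4 of 19 against siGRHL2a, where 2.82% and 3.21% of all genes tested were. None was called higher by edgeR or DESeq2. At an unadjusted p under 0.05, 13 of the 19 were lower and 2 higher against siSOX2b (20% and 20.7% of all genes), and 14 were lower and 2 higher against siGRHL2a (18.7% and 18.2%). The median log2FC of the 19 was -0.31 against siSOX2b and -0.46 against siGRHL2a. P3H1, a collagen prolyl hydroxylase, was at 7.51, 7.55 and 8.05 CPM in siTP63b, 16.7, 15.7 and 15.8 CPM in siSOX2b and 16.1, 16.6 and 18.4 CPM in siGRHL2a. Its siTP63b libraries did not overlap the others, and the log2FC was -1.06 (edgeR adjusted p = 1.86e-10) and -1.15 (edgeR adjusted p = 3.75e-11). TIMP3 (-0.91) and ADAMTS1, a matrix protease gene (-1.46), were the next against siSOX2b, and LOXL4 (-1.24) and TLL1, a procollagen-processing protease gene (-1.12), against siGRHL2a. Of 19 other basement membrane genes, 2 were called lower and 2 higher in siTP63b minus siGRHL2a (3.21% and 2.18% of all genes tested). In siTP63b minus siSOX2b 2 were called higher (3.88%). HMCN1, for hemicentin-1 (-0.92), and COL18A1, for collagen XVIII (-0.82), fell against siGRHL2a, and LAMA2 rose against siSOX2b (0.88). PXDN, for the peroxidase that cross-links collagen IV, rose in both (1.81 and 2.11) at no more than 1.44 CPM in any of these libraries. FREM1 was the other gene higher against siGRHL2a, with 14, 14 and 6 counts in siTP63b against 6, 0 and 0 (log2FC 2.60, edgeR adjusted p = 0.00896).

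Among receptors and adaptors, SDC1, the epithelial heparan sulfate receptor syndecan-1, was lowest in siSOX2b. It was at 202, 194 and 230.3 CPM in siSOX2b, 438, 410.5 and 493 CPM in siTP63b and 507, 487 and 509 CPM in siGRHL2a. The siSOX2b libraries did not overlap either group, and the log2FC was 1.10 in siTP63b minus siSOX2b (edgeR adjusted p = 6.3e-15) and -1.26 in siSOX2b minus siGRHL2a (edgeR adjusted p = 9.65e-16). ITGA4 (0.78) and ITGB3 (-1.17, at most 1.64 CPM in a library) were called in siTP63b minus siSOX2b, and BCAM, a laminin α5 receptor, fell in siTP63b minus siGRHL2a (-0.77). With SDC1, 1 of 19 tested integrins and receptors was lower and 2 higher in siTP63b minus siSOX2b (2.82% and 3.88% of all genes tested). In siTP63b minus siGRHL2a 1 was lower and 0 higher by edgeR (3.21% and 2.18%). ITGA4 was at 0.74 in that comparison by edgeR, inside the threshold, and was called higher there by DESeq2 (log2FC 0.76, DESeq2 adjusted p = 3.06e-08). The 20 focal adhesion adaptors gave TNS3, for tensin-3, in siTP63b minus siSOX2b (0.91, edgeR adjusted p = 4.07e-16) and TNS4 in siTP63b minus siGRHL2a (-0.80, edgeR adjusted p = 4.13e-10). Of all genes tested, 3.88% were called higher in the first of these comparisons and 3.21% lower in the second. In siSOX2b minus siGRHL2a the called genes of the 4 lists were SDC1 and TLL1 (-0.80), both lower. Each was 1 of 19 tested genes of its list, where 2.27% of all genes tested were called lower and 1.05% higher.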

How the data were processed

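RNA-seq was carried out on HCC95 cells in 5 groups of 3 libraries. According to the methods and the submitters' processing notes, the authors aligned paired-end reads of poly(A)+ RNA to hg38 using HISAT2 2.2.1 and assigned those with a unique alignment to Gencode release 40 genes using featureCounts 2.0.1. The deposited table gives raw counts per gene, with no scaling. Each gene was counted over its full span, introns included. Strand use, and whether reads or fragments were counted, are not given in the sources used here. DELEC1, which covers TNC on the opposite strand, held 101% to 103% as many counts in all 15 libraries. Such near-identical counts point to reads counted for both genes without regard to strand. Every count column was matched to a library by its name, with 0 left over.

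Totals ranged from 15655495 to 34229063 counts per library. The sets of libraries differed in their share of even counts, so their totals may not be in the same unit. This was not tested. Up to 3 counts in a library were taken as the floor. Libraries of a group differed by more than sampling noise (chi-square per gene 2.04 to 8.13), and each was used as 1 replicate.

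Counts were processed in R 4.3.3 using edgeR 4.0.16 and limma 3.58.1, with TMM scaling, filterByExpr by group and a single quasi-likelihood model for the 15 libraries. P-values were adjusted (Benjamini-Hochberg) across all 25108 genes that passed the filter. A gene was called at adjusted p below 0.05 with absolute log2FC above 0.75. The script was tested on simulated counts of 25108 genes, 200 of them changed by a log2FC of 1.5. The changed genes were drawn from those with high counts, so recovery of changes near the threshold or at low counts was not tested. For siKLF5b minus siNC1, siTP63b minus siSOX2b, siTP63b minus siGRHL2a and siSOX2b minus siGRHL2a in turn, edgeR called 199, 200, 200 and 200 of these with 3, 4, 3 and 3 false calls, and DESeq2 1.42.0 called 199, 200, 200 and 199 with 1, 2, 0 and 1.

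Exon lengths and gene types came from Gencode release 44, in which 32 of the 36 members had the same span, and promoters from RefSeq (GRCh38.p14), which matched 30 of 36 members. The members and lists were chosen with earlier results of these data known. Library values are given for members called in at least 1 comparison and for COL17A1, ITGA6, ITGB4, LAMA3, LAMB3, COL4A1, COL4A2, COL4A5, COL4A6 and COL7A1, and from each other list the called genes with the smallest adjusted p, up to 3 per comparison. Library values of ITGB6, ITGA3 and FREM2, and other values of the remaining members, were chosen for printing after they were seen.

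Alternatives were RLE size factors, DESeq2, no filter on low counts, a minimum of 10 counts in each library, a block for the replicate number, the 6 libraries compared alone, the same-set libraries alone, no fold threshold, an absolute log2FC above 1, halved counts of the 9 libraries with more even counts, each library left out in turn, and levels per kilobase of exon or of span. A further one, chosen after seeing the data, subtracted the counts of genes nested in a member that held at least 5% as many. Genes that overlap others, or have near-identical copies, share reads and are uncertain.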

Additional observations from a re-analysis of the deposited data

How the results depend on the processing

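None of the 140 calls (35 members in 4 comparisons) changed under RLE size factors, DESeq2, no low-count filter or halved counts, and no called value changed sign. The median log2FC of the members ranged from -0.07 to 0.00 in siKLF5b minus siNC1 and from -0.10 to 0.01 in siTP63b minus siSOX2b when 1 library was left out. FRAS1, at the edge of the threshold, left 0 members higher in siTP63b minus siSOX2b with at least 10 counts in every library, with the 6 libraries compared alone and with the same-set libraries alone. Without a fold threshold, 12 members were lower and 12 higher in siKLF5b minus siNC1, 15 and 8 in siTP63b minus siSOX2b, 21 and 5 in siTP63b minus siGRHL2a, and 17 and 3 in siSOX2b minus siGRHL2a. With an absolute log2FC above 1, 0 were lower in siKLF5b minus siNC1, 1 was lower and 0 higher in siTP63b minus siSOX2b, and 3 were lower in siTP63b minus siGRHL2a. Subtracting nested counts, chosen after seeing the data, gave 1 lower member in siSOX2b minus siGRHL2a (FRAS1). With 1 library left out, siTP63b minus siSOX2b had 3 to 5 lower members (5 without siSOX2b replicate 2, when LAMB3 and COL4A6 joined) and 0 to 1 higher (0 without siTP63b replicate 2, siSOX2b replicate 1 or siSOX2b replicate 2), and siTP63b minus siGRHL2a had 4 to 5 lower (4 without siTP63b replicate 2). The other counts stayed as reported, 1 lower and 1 higher in siKLF5b minus siNC1 and 0 in siSOX2b minus siGRHL2a. The cause of these changes was not tested.

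Between libraries with the same replicate number, correlations of deviations over all tested genes were -0.0312 to 0.0345. Such values cannot exclude a culture or batch shared by the same number. In siSOX2b minus siGRHL2a each correlation was highest for the own number. It was also highest for replicates 1 and 2 in siTP63b minus siSOX2b and replicate 1 in siTP63b minus siGRHL2a, and for no replicate in siKLF5b minus siNC1. A block for the replicate number left the counts of lower and higher members at 1 and 1, 3 and 1, 5 and 0, and 0 and 0 in the 4 comparisons. Introns in the counts and overlapping genes limit levels per gene, and EGFLAM, with 0 to 11 counts, could not be tested at this depth.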
